A study of Mus musculus with 2 samples.

Results

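Transcripts of 10 genes that place, recruit or read methylation of lysine 9 of histone H3 (H3K9) were examined in differentiating control ES cells and in those with knockdown of *Kdm5b*. The genes were taken by name and not by their values, though earlier results of these data were known. They were the methyltransferase genes *Setdb1*, *Ehmt1*, *Ehmt2*, *Suv39h1* and *Suv39h2*, the co-repressor gene *Trim28*, the HP1 genes *Cbx1*, *Cbx3* and *Cbx5*, and the remodeler gene *Atrx*. All 10 were found among the 21935 gene symbols of the deposited RNA-Seq tables. R1 cells, an established line of mouse ES (embryonic stem) cells, had been infected with lentivirus carrying a short hairpin RNA (shRNA) against *Kdm5b* (shKdm5b) or against luciferase (shLuc, the control), selected with puromycin, and then cultured for 72 h without LIF, the cytokine that maintains self-renewal. Before that they were grown on irradiated mouse embryonic fibroblasts with LIF, and low-attachment dishes were used for differentiation per the labels. Polyadenylated RNA of 1 library per condition was sequenced, so none of the differences below has a replicate check, no test of the conditions could be made, and the condition, the culture and the library cannot be told apart. In bulk RNA, a smaller share of cells that express a gene and less RNA per cell also cannot be told apart.

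H3K9 methylation marks silent chromatin. SETDB1 trimethylates H3K9 at endogenous retroviruses and imprinted regions, where it is brought by TRIM28 (KAP1), a scaffold that binds KRAB zinc finger proteins on DNA. G9a (*Ehmt2*) and GLP (*Ehmt1*) act as a dimer that dimethylates H3K9 in euchromatin, and SUV39H1 and SUV39H2 trimethylate H3K9 at pericentromeric repeats. HP1 alpha (*Cbx5*), HP1 beta (*Cbx1*) and HP1 gamma (*Cbx3*) bind the methylated lysine through their chromodomain, and ATRX, with the chaperone DAXX, deposits histone H3.3 at repeats and telomeres. In ES cells SETDB1 and TRIM28 are needed for silencing of endogenous retroviruses, whereas KDM5B, the depleted enzyme, removes methyl groups from H3K4, a mark of active promoters.

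The promoters of the 3 genes with the largest decreases and of the pair with the largest increases are shown because trimethylated H3K4, a substrate of KDM5B, is found at promoters. Each line gives the 250 bases before the annotated start, 5′ to 3′ on the strand of the gene, from RefSeq (GRCm38.p6), with CG dinucleotides in capitals.
Trim28 (chr7:13023902-13024151, plus strand): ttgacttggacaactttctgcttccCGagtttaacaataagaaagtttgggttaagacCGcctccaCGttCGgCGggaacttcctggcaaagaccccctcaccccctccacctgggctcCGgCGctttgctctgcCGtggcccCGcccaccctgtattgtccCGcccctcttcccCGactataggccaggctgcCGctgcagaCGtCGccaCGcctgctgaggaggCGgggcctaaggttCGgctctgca
Ehmt2 (chr17:34898224-34898473, plus strand): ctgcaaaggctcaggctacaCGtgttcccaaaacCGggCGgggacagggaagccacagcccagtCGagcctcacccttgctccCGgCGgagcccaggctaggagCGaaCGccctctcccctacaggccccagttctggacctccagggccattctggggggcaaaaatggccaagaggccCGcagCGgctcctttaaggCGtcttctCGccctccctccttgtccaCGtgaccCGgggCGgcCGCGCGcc
Cbx5 (chr15:103239853-103240102, minus strand): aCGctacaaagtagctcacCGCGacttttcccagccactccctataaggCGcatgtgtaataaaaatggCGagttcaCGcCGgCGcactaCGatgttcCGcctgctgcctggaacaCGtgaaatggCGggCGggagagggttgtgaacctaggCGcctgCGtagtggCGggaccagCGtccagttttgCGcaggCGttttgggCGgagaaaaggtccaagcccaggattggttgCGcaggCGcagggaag
Suv39h2 (chr2:3474987-3475236, minus strand): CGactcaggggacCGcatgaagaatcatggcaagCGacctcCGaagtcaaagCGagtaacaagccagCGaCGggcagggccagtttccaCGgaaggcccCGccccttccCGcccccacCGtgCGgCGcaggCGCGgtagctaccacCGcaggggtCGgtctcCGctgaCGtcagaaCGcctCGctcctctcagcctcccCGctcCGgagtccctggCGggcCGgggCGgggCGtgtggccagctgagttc
Cbx3 (chr6:51470366-51470615, plus strand): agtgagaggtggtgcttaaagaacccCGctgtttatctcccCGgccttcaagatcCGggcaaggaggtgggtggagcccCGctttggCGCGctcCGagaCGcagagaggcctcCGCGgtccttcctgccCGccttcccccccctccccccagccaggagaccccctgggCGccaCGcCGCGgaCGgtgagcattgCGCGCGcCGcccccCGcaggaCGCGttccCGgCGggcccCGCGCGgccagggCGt
*Ehmt2*, *Cbx5* and *Cbx3* have a second annotated start, and the first is shown. These 5 windows held 17 (*Trim28*), 18 (*Ehmt2*), 22 (*Cbx5*), 27 (*Suv39h2*) and 29 (*Cbx3*) CG dinucleotides, against a median of 6 over 27025 promoters of that length. At the first start of the other 5 genes the count ran from 6 (*Atrx*) to 26 (*Ehmt1*), so promoters rich in CG were found both for genes with higher and for genes with lower transcripts. The letters GGGCGG (GC box, either strand) were found in all 5 windows shown, and in 32.9% of all promoters. CCAAT on either strand was found in *Cbx5* alone of the 5, and in 34.5% of all promoters, and TATAAA was found in none of the 5 and in 13.0% of all promoters. CACGTG was found in the *Ehmt2* and *Cbx5* windows and in 6.05% of all promoters. No factor binding was measured in these libraries, and nothing about a factor follows from these matches.

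In the GENCODE M21 annotation of GRCm38 the genes lie on 8 chromosomes, with *Suv39h1* (8061171 to 8074760) and *Atrx* (105797615 to 105929403) both on chromosome X. *Setdb1* lies on chromosome 3 from 95323525 to 95357202, *Ehmt1* on chromosome 2 from 24789928 to 24919614 and *Suv39h2* on chromosome 2 from 3455815 to 3475031. *Ehmt2* lies on chromosome 17 from 34898469 to 34914052 and *Trim28* on chromosome 7 from 12999114 to 13031035, a span that holds longer transcripts starting upstream of the promoter shown. *Cbx1* lies on chromosome 11 from 96789127 to 96808640, *Cbx3* on chromosome 6 from 51470360 to 51483704 and *Cbx5* on chromosome 15 from 103191544 to 103239816. The deposited reads were aligned to mm8, and the positions above locate the genes without describing where reads were placed.

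The alignment files hold 78172698 reads of 50 bases for the shLuc library and 72702698 for the shKdm5b library. These totals agree within 2 reads with the totals that follow from the deposited reads, lengths and RPKM values (reads normalized to transcript length and library total). The reads lay on 25736755 distinct positions (32.9% of reads) in shLuc cells and on 14639660 (20.1%) in shKdm5b cells. The shKdm5b library thus had more reads per distinct position, and the part of this in the values below was not tested. *Kdm5b* itself had an RPKM of 104 (51378 reads) in shLuc cells and 3.01 (1377 reads) in shKdm5b cells. All 12 listed ES cell identity genes had an RPKM above 1, with 1 higher (*Dppa5a*), 2 lower (*Pou5f1*, log2 ratio -1.76, and *Esrrb*) and 9 within 1.5-fold, and a summed RPKM of 3403 and 3405. In that sum *Dppa5a* (RPKM 1096 and 1651) and *Pou5f1* (619 and 182) went in opposite directions. After the GC correction described below 3 of the 12 were higher and 1 was lower. The part of these ES cell identity genes in the results below, and that of the feeder markers, was not tested. Of 12 fibroblast markers listed for the feeder cells, 2 had an RPKM above 1 (*Thy1* and *Fbln1*), with a summed RPKM of 18.1 in shLuc cells and 24.7 in shKdm5b cells, no marker at 0 reads in the former and 2 (*Postn* and *S100a4*) in the latter. *Fbln1* (log2 ratio 0.59) made up most of that difference and was the 1 marker of the 12 past 1.5-fold with an RPKM above 1, while *Pdgfra*, below an RPKM of 1, went the other way (260 and 54 reads). After the GC correction 3 of the 12 feeder markers passed the thresholds as higher and 0 as lower. Their median log2 ratio was 0.17 as deposited and 0.52 after the correction.

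Of the 10 genes, 3 had a fold change above 1.5 with an RPKM above 1 in either library, *Trim28*, *Ehmt2* and *Cbx5*, all of them lower in shKdm5b cells. Over the 11804 genes with an RPKM above 1 in either library, 48.3% passed the same thresholds, 16.3% higher and 32.0% lower. The study also required a false discovery rate from edgeR, which is left out of these thresholds because the spread between cultures has to be assumed, and it is given with assumed values below. The count among the 10 genes, 3 lower and 0 higher, is thus near the background for lower genes and is not a result about these genes as a group. Log2 ratios of shKdm5b to shLuc, taken on the log2(RPKM + 0.1) scale, ran from -1.72 to 0.45, with 7 below and 3 above 0. Their median was -0.42, beside a median of -0.21 (SD across genes 0.84) over all expressed genes. Scaling both libraries to a median log2 ratio of 0 moved the split to 2 lower (*Trim28* and *Ehmt2*) and 2 higher (*Suv39h2* and *Cbx3*), and that of all genes from 1921 higher and 3781 lower to 2621 higher and 3009 lower. In an exact test of the pair of libraries with edgeR at an assumed dispersion of 0.04 between cultures, 0 of the 10 genes passed both the test and the thresholds, against 2.41% of all genes. At an assumed dispersion of 0, which allows for counting error alone, the same 3 of the 10 passed, against 47.0% of all genes.

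**Figure D1:**
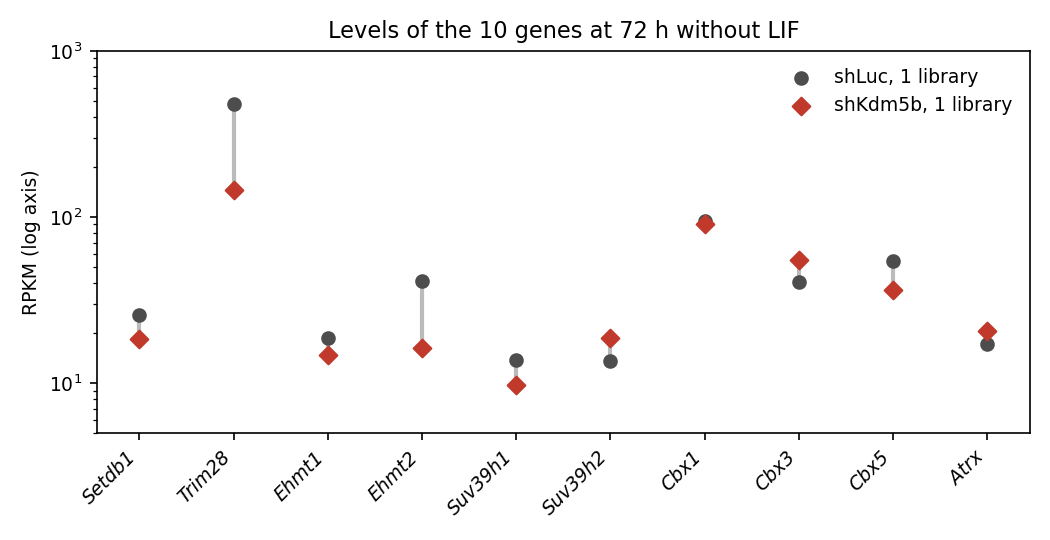
RPKM on a log axis of each of the 10 genes at 72 h without LIF in shLuc cells (grey circles) and the shKdm5b library (red diamonds), with 1 library per condition and therefore no error bars. *Trim28* stands highest in both libraries, at 476 and 145, and *Suv39h2*, *Cbx3* and *Atrx* are the genes whose red symbol lies above the grey.

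*Trim28*, which encodes the scaffold that links KRAB zinc finger proteins to SETDB1, showed the largest difference of the 10. Its RPKM was 476 (120644 reads) in shLuc cells and 145 (34072 reads) in shKdm5b cells, or 30.4% of the control, a log2 ratio of -1.72 (95% counting interval -1.74 to -1.70). *Trim28* was the 93rd highest of the 11804 expressed genes by mean RPKM, and its reads amounted to 37.2 per base of transcript in shLuc cells and 10.5 per base in shKdm5b cells. The intervals given here cover counting error only and take reads as independent, which reads amplified by PCR are not. *Setdb1*, the methyltransferase of the pair, had an RPKM of 25.8 (9322 reads) in shLuc cells and 18.4 (6166 reads) in shKdm5b cells, a log2 ratio of -0.49 (-0.54 to -0.45), within 1.5-fold. Each of its 3 transcript entries gave -0.49. *Setdb1* transcripts were thus lower by less than those of its recruiter, and the ratio of *Setdb1* to *Trim28* RPKM was 0.0542 in shLuc cells and 0.127 in shKdm5b cells. The log2 change of this ratio was 1.23 (95% Poisson counting interval 1.18 to 1.28), and 0.57 after the GC correction described below.

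Of the G9a and GLP pair, *Ehmt2* was the one past the thresholds. *Ehmt2* had an RPKM of 41.0 (12006 reads) in shLuc cells and 16.3 (4431 reads) in shKdm5b cells, 2.51-fold lower, with a log2 ratio of -1.33 (-1.38 to -1.28). The transcript is rich in GC, and after the GC correction described below *Ehmt2* was at -0.53, within 1.5-fold. *Ehmt1* had an RPKM of 18.7 (7204 reads) and 14.7 (5263 reads), a log2 ratio of -0.35 (-0.40 to -0.30). The RPKM of *Ehmt1* was 0.456 of that of *Ehmt2* in shLuc cells and 0.904 of it in shKdm5b cells, a log2 change of the ratio of 0.99 (0.91 to 1.06). At the deposited values, transcripts of the 2 dimer partners, unequal in the control, were therefore near parity in shKdm5b cells. After the GC correction described below the log2 change of the ratio was 0.58, which leaves *Ehmt1* further below *Ehmt2*. The 2 entries of *Ehmt2* gave log2 ratios of -1.34 and -1.33, and the 4 entries of *Ehmt1* gave -0.35 to -0.34.

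The SUV39H genes, which encode the enzymes of pericentromeric heterochromatin, lay on opposite sides of the control. *Suv39h1* had an RPKM of 13.8 (3368 reads) in shLuc cells and 9.78 (2215 reads) in shKdm5b cells, a log2 ratio of -0.50 (-0.58 to -0.42). *Suv39h2* had an RPKM of 13.6 (4402 reads) and 18.6 (5593 reads), a log2 ratio of 0.45 (0.39 to 0.51). Neither passed 1.5-fold. Their RPKM values were nearly equal in shLuc cells, at a ratio of 1.02 (0.970 to 1.06), whereas in shKdm5b cells *Suv39h1* stood at 0.526 of *Suv39h2*. The log2 change of this ratio was -0.95 (-1.05 to -0.85). The *Suv39h2* values come from a non-coding RefSeq entry of 4135 bases that has the higher mean RPKM, and the coding entry gave the same log2 ratio, 0.45.

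The 3 HP1 genes differed from each other. *Cbx5* (HP1 alpha) had an RPKM of 54.6 (37563 reads) in shLuc cells and 36.3 (23206 reads) in shKdm5b cells, a log2 ratio of -0.59 (-0.61 to -0.57), which is 1.50-fold lower and at the edge of the threshold of 0.58 on the log2 scale. It dropped within 1.5-fold with a pseudocount of 1 (-0.58) and under the 3 other scalings of the libraries (-0.53 to -0.37). *Cbx3* (HP1 gamma) had an RPKM of 40.4 (5694 reads) and 55.4 (7257 reads), a log2 ratio of 0.45 (0.40 to 0.50). *Cbx1* (HP1 beta) had an RPKM of 93.9 (9351 reads) and 90.7 (8402 reads), a log2 ratio of -0.05 (-0.09 to -0.01), and was the member with the smallest difference. The sign of *Cbx1* turned under the 3 other scalings (0.01 to 0.17), and that of *Cbx3* turned (-0.04) when GC content and length were both corrected for. Summed over the 3 genes, HP1 RPKM was 189 in shLuc cells and 182 in shKdm5b cells. Within that sum *Cbx1* took 49.7% in both libraries, while *Cbx3* took 21.4% in shLuc cells and 30.4% in shKdm5b cells, and *Cbx5* took 28.9% and 19.9%. The total of HP1 transcripts was thus nearly equal at the deposited scaling and without a GC correction. The order of *Cbx3* and *Cbx5* was inverted, with a log2 change of their ratio of 1.04 (0.99 to 1.10). After the GC correction described below *Cbx1* (-0.02) and *Cbx3* (0.03) hardly differed while *Cbx5* (-0.92) was lower, so the near equality of the total does not carry over.

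*Atrx*, the remodeler gene with the longest transcript of the 10 (10242 bases), had an RPKM of 17.3 (13835 reads) in shLuc cells and 20.7 (15391 reads) in shKdm5b cells. Its log2 ratio was 0.26 (0.23 to 0.29), within 1.5-fold, and its sign turned (-0.25) after the GC correction.

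**Figure D2:**
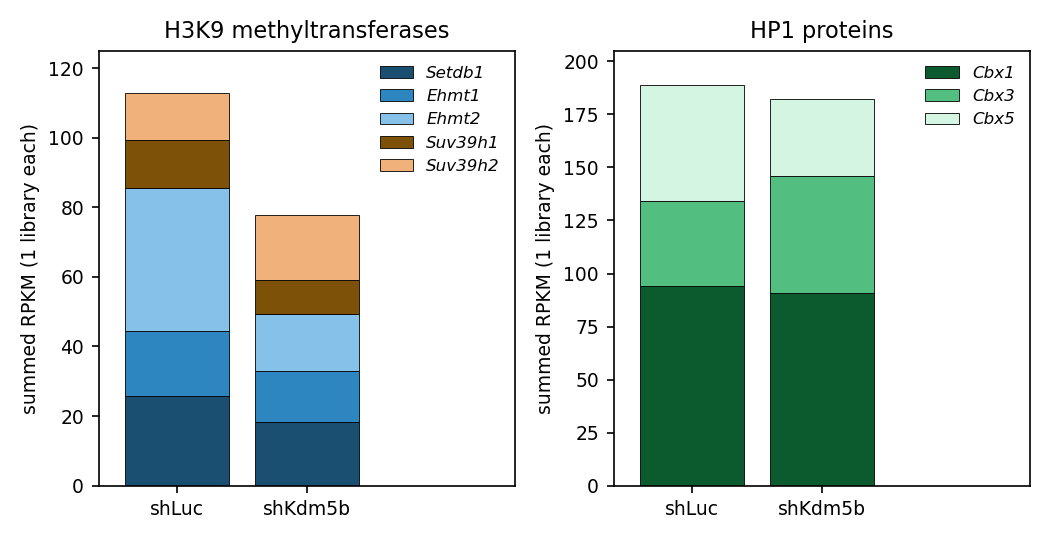
Stacked bars of the summed RPKM, from 0, of the 5 H3K9 methyltransferase genes (left) and the 3 HP1 genes (right) in the shLuc and shKdm5b libraries, with 1 library per bar. At the deposited values, without the GC correction described below, the methyltransferase sum is 113 in shLuc cells and 77.7 in shKdm5b cells. *Ehmt2* takes most of that difference, and the HP1 sums are 189 and 182.

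The RPKM values of the 5 methyltransferase genes added up to 113 in shLuc cells and 77.7 in shKdm5b cells. *Ehmt2* made up 36.3% of the sum in shLuc cells and 20.9% in shKdm5b cells, and *Suv39h2* made up 12.1% and 23.9%. These sums and shares are of deposited values. After the GC correction described below the log2 ratio of *Ehmt2* (-0.53) and that of *Suv39h2* (0.15) were both smaller in size, and no shares were taken after it. The order of levels was *Trim28*, *Cbx1*, *Cbx5*, *Ehmt2*, *Cbx3*, *Setdb1*, *Ehmt1*, *Atrx*, *Suv39h1* and *Suv39h2* in shLuc cells. In the shKdm5b library it was *Trim28*, *Cbx1*, *Cbx3*, *Cbx5*, *Atrx*, *Suv39h2*, *Setdb1*, *Ehmt2*, *Ehmt1* and *Suv39h1*. Neighbours in these orders whose RPKM did not differ beyond counting error were *Ehmt2* and *Cbx3* (ratio 1.01, 95% counting interval 0.983 to 1.05) and *Suv39h1* and *Suv39h2* in shLuc cells, and *Suv39h2* and *Setdb1* in shKdm5b cells (1.01, 0.977 to 1.05).

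Log2 ratios were lower for transcripts richer in GC, among the 10 genes as over all genes. GC content ran from 39.5% (*Atrx*) to 59.9% (*Ehmt2*). *Ehmt2* and *Trim28* (59.6%), the members richest in GC, had the lowest log2 ratios. All 3 members with a log2 ratio above 0 were among the 4 with a GC content below 45%, *Atrx*, *Cbx3* (41.1%), *Cbx5* (42.6%) and *Suv39h2* (43.2%), and *Cbx5* was the exception among them. Across the 10 genes the Spearman correlation of log2 ratio and GC content was -0.72 and the Pearson correlation -0.88, and across 11535 expressed genes the Spearman correlation was -0.53. Genes of the same pair of libraries share their depth and base composition and are not independent, so these are descriptions.

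**Figure D3:**
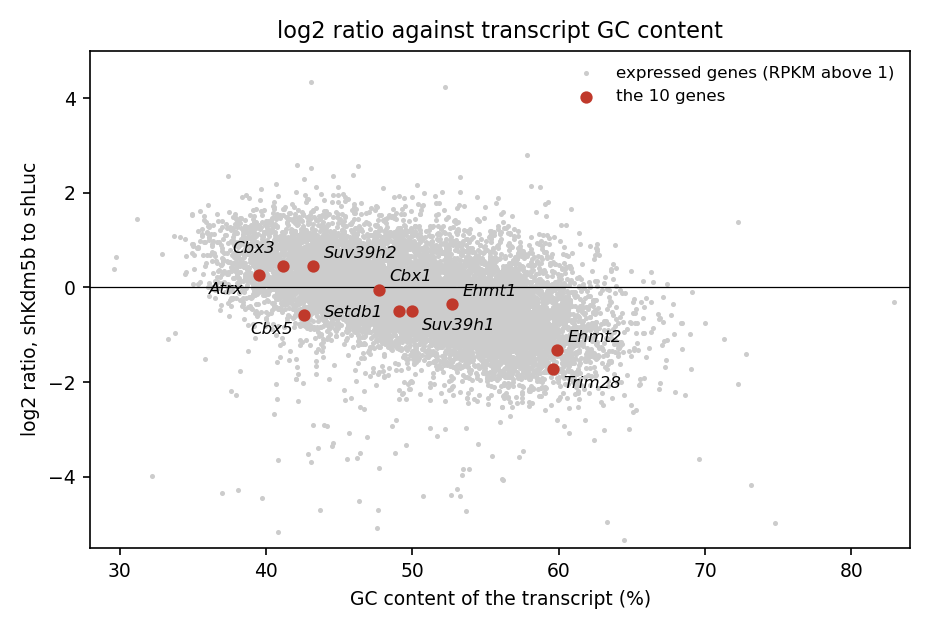
Log2 ratio of shKdm5b to shLuc RPKM against the GC content of the transcript in percent, for expressed genes with a GC value (grey points) and the 10 genes (red, labelled). *Trim28* and *Ehmt2* lie at the GC-rich end with log2 ratios of -1.72 and -1.33, and *Cbx5* lies below the other members with a GC content under 45%.

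The ratios were therefore also taken after the curve of log2 ratio on GC content over all expressed genes was removed, which centres the genes as well. After this correction 37.2% of genes and 2 of the 10 members, *Trim28* (-0.93) and *Cbx5* (-0.92), passed the thresholds, both lower. *Ehmt2* (-0.53) came within 1.5-fold, and the sign of *Ehmt1* (0.05) and *Atrx* (-0.25) turned. The values of *Suv39h2* (0.15) and *Cbx3* (0.03) moved towards 0. Whether GC content acted on the measurement or goes with regulation was not tested. Removal of a further curve on transcript length left *Trim28* at -0.81 and *Cbx5* at -0.63, still past 1.5-fold, and *Ehmt2* at -0.39. The change of the *Cbx3* to *Cbx5* ratio, a pair of similar GC content, was 0.96 after the GC correction and 0.59 once length was removed too. That of *Suv39h1* to *Suv39h2* was -0.46 and -0.51, and that of *Ehmt1* to *Ehmt2* 0.58 and 0.62, each in the direction of the deposited values.

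**Figure D4:**
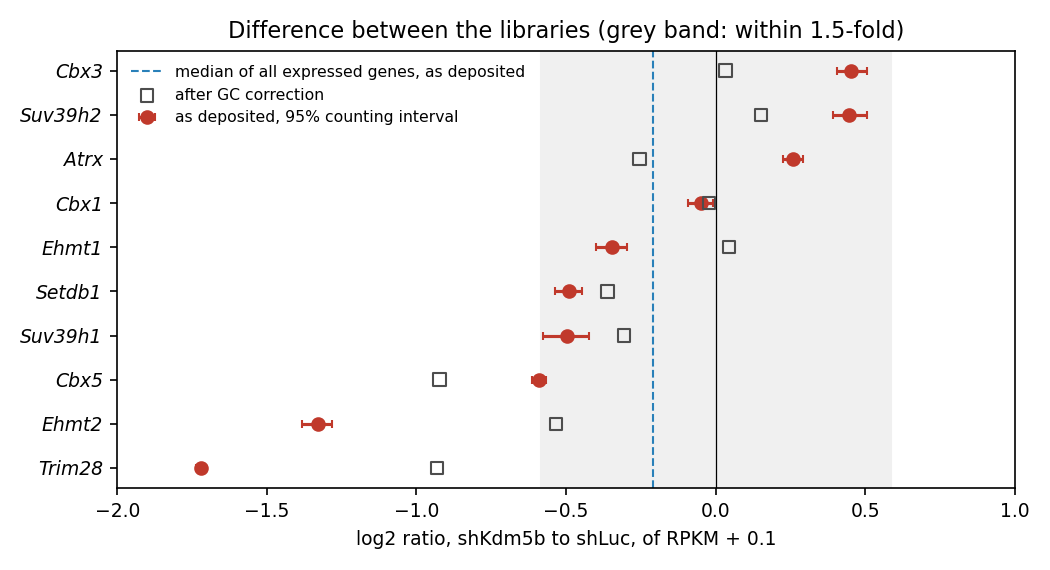
Log2 ratio of shKdm5b to shLuc on the log2(RPKM + 0.1) scale for the 10 genes as deposited (red, bars give the 95% counting interval) and after the GC correction (open squares), with the 1.5-fold range in grey and the median of all expressed genes, -0.21, as a dashed line. *Trim28* and *Cbx5* lie below the grey band in both series, and *Ehmt2* in the deposited values alone.

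Reads of some members could be shared with other genes. Of the 50-base windows of the transcript, the length of the reads, 28.9% of those of *Cbx3* also occurred in annotated transcripts of 16 other genes, among them the pseudogenes *Cbx3-ps6* and *Cbx3-ps7*. For *Suv39h1* this was 20.5%, all in the antisense gene *Gm14820*, for *Setdb1* 8.27% and for *Suv39h2* 8.02%, the latter in the overlapping gene *Dclre1c* on the opposite strand (RPKM 3.13 and 3.44). The windows of *Suv39h2* came from a transcript of 2331 bases, shorter than the counted entry of 4135 bases, so its share may not hold for the whole entry. The antisense gene *Gm13184* also overlaps exons of *Suv39h2*, by 83 bases. For *Trim28*, *Ehmt1*, *Ehmt2*, *Cbx1* and *Atrx* no window was shared, and for *Cbx5* 0.023% of windows were. Neither strand-specific counting nor the handling of reads with several matches is given for the RNA-Seq data in the sources used here, so the values of *Cbx3*, *Suv39h1*, *Setdb1* and *Suv39h2* are less certain than those of the other members.

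*Cbx3* and *Cbx5* each have a neighbour that starts head to head with them. *Hnrnpa1*, an RNA-binding protein gene whose start lies 616 bases from that of *Cbx5*, had an RPKM of 99.7 in shLuc cells and 179 in shKdm5b cells, a log2 ratio of 0.84, opposite to that of *Cbx5*. *Hnrnpa2b1*, 466 bases from *Cbx3*, had an RPKM of 386 and 454, a log2 ratio of 0.24, on the same side as *Cbx3*. The ratios of both neighbours are as deposited, without the GC correction. The divergent neighbours of *Ehmt2* and *Trim28*, *C2* (RPKM 0.711 and 0.484) and *Slc27a5* (0.0989 and 0.0236), were below an RPKM of 1 in both libraries. *Slc27a5* starts 922 bases from the outer edge of *Trim28*, where its longer transcripts start, and not beside the *Trim28* promoter shown above.

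Other genes of the pathway, listed by role, were examined with the same thresholds, and their counts are to be read against the 48.3% of all expressed genes that passed, 16.3% higher and 32.0% lower. Of 4 other genes for H3K9 methyltransferases, 2 had an RPKM above 1 and so could pass, and 0 did. *Prdm2*, the highest, had an RPKM of 8.97 in shLuc cells and 6.83 in shKdm5b cells. Among 10 genes for partners of SETDB1 and TRIM28, including the HUSH silencing complex, 3 were higher, 1 was lower and 6 did not pass, with a median log2 ratio of 0.02, a share of 4 of 10 that is near that background. The higher genes were *Pphln1* (log2 ratio 1.06) and *Mphosph8* (0.71), which encode HUSH subunits, and *Zfp809* (0.78), which encodes a KRAB zinc finger protein that binds proviral DNA. The lower gene was *Morc2a* (-0.75), which encodes an ATPase that acts with HUSH. After the GC correction 2 of these were past 1.5-fold, *Pphln1* (1.20) and *Zfp809* (0.66), while *Mphosph8* (0.37) and *Morc2a* (-0.58) were not, and *Fam208a*, a HUSH subunit gene listed as *D14Abb1e*, moved from -0.44 to -0.99.

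Of 4 genes for partners of G9a and GLP, *Zfp644* (log2 ratio 0.66) was higher and *Cdyl2* (-1.28) was lower, while 2 did not pass, with a median log2 ratio of -0.35. After the GC correction *Cdyl2* (-0.74) was still past 1.5-fold and *Zfp644* (0.28) was not. Of 15 genes for partners of HP1 and ATRX, 2 were higher, 5 were lower and 8 did not pass, with a median log2 ratio of -0.12, and this share of 7 of 15 is also near the background. *Daxx*, which encodes the chaperone that works with ATRX, had an RPKM of 41.3 in shLuc cells and 17.6 in shKdm5b cells (log2 ratio -1.23), whereas *H3f3a* (0.93) and *H3f3b* (0.86), which encode the histone H3.3 that DAXX carries, were higher. *H3f3a* and *H3f3b* have processed pseudogenes, so their reads may be shared. *Suv420h2* (-1.51), which encodes an H4K20 methyltransferase that binds HP1, and *Chaf1a* (-1.29) and *Chaf1b* (-0.74), subunits of the CAF-1 chaperone, were lower. After the GC correction *Daxx* (-0.68), *Chaf1a* (-0.75), *Suv420h2* (-0.72) and *H3f3a* (0.63) were still past 1.5-fold, *H3f3b* (0.44) and *Chaf1b* (-0.29) were not, and *Hells*, which encodes a chromatin remodeler, moved from 0.00 to -0.62. Of 10 H3K9 demethylase genes, 9 had an RPKM above 1 and so could pass. Of the 10, 2 were lower, *Kdm4b* (-1.34) and *Kdm4a* (-1.05), 0 were higher and 8 did not pass, with a median log2 ratio of -0.19. Among the latter was *Kdm4c*, the highest of the list, with an RPKM of 39.5 and 44.1. After the GC correction 3 were lower, *Kdm4b* (-0.61), *Kdm4a* (-0.60) and *Kdm3a* (-0.66), 1 was higher, *Phf2* (0.59), and the median was -0.35. With the exact test at an assumed dispersion of 0.04, 0 genes of these 5 lists passed, against 2.41% of all genes, a share so low that few calls could be had among lists of this length.

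**Figure D5:**
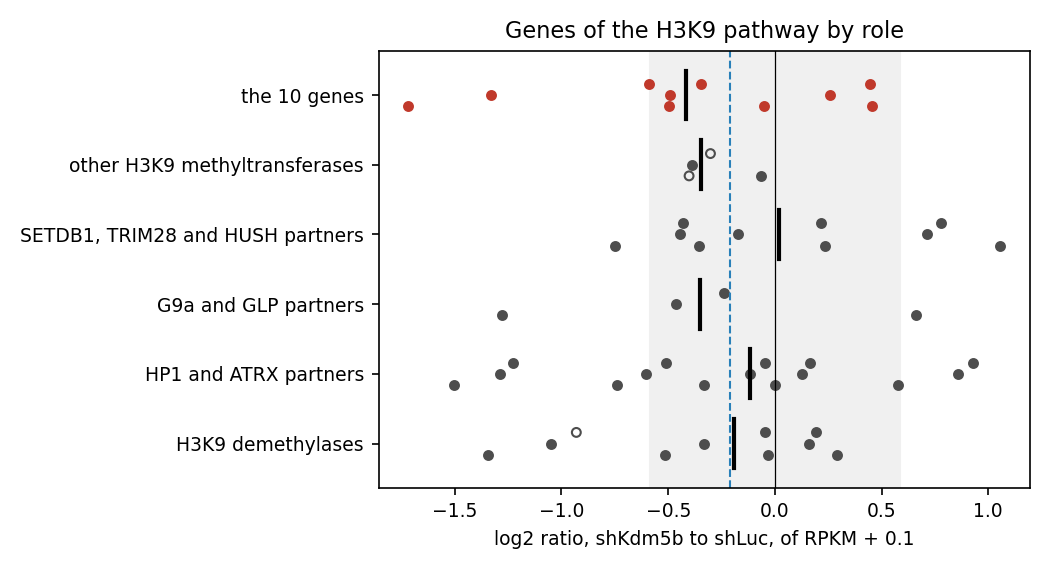
Log2 ratio of shKdm5b to shLuc on the log2(RPKM + 0.1) scale for the 10 genes (red) and 5 lists of related genes (grey, open circles where RPKM was below 1 in both libraries), with the median of each list as a black bar, the 1.5-fold range in grey and the median of all expressed genes as a dashed line. List medians run from -0.42 (the 10 genes) to 0.02 (SETDB1, TRIM28 and HUSH partners), and genes lie past 1.5-fold on both sides in 3 of the 5 lists.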

How the data were processed

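Polyadenylated RNA was sequenced from 1 shLuc and 1 shKdm5b library of R1 ES cells. Per the labels' processing notes, CASAVA 1.0, Bowtie 0.12.7 and the mm8 build were used; the program that counted reads is not given in the sources used here. The authors deposited a read count and an RPKM value (reads normalized to transcript length and sequencing depth) for 27405 RefSeq entries, and an alignment file per library. The counts were used as deposited. Where a symbol had several entries, that of highest mean RPKM represented it. Ratios used a pseudocount of 0.1, and 95% intervals are exact Clopper-Pearson intervals on reads (for changes of a ratio between genes, normal intervals from Poisson counting variances). With 1 library per condition no test of the conditions was made. The exact test of edgeR 4.0.16 (R 4.3.3, TMM scaling, FDR below 0.001), at an assumed dispersion, compares the pair of libraries. GC content came from GENCODE M21 transcripts matched by accession (97.7% of expressed genes), and lowess curves (fraction 0.3, statsmodels 0.14.6) were fitted on genes with RPKM above 1 in both libraries. The *Suv39h2* entry of 4135 bases was matched to a transcript of 2331 bases. Promoters came from RefSeq. Other steps used SciPy 1.17.1, NumPy 2.4.6 and pandas 2.3.3 under Python 3.11.15. The steps were tested on simulated data. Members, lists and alternatives were chosen with earlier results of these data known. Named were the members, *Kdm5b*, up to 6 genes per pathway list past the thresholds by size of log2 ratio, and the highest gene of each list. Genes sharing sequence or lying beside a member, cell type markers, *Fam208a*, *Hells*, *Kdm3a* and *Phf2* were named after their values were seen.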

Additional observations from a re-analysis of the deposited data

How the results depend on the processing

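No paired analysis was possible because there is a single library of each kind, so none could be left out either. The count of members past the thresholds, 3, was 2 to 4 under the other pseudocounts, scalings, entry choices, corrections and thresholds, and 0 in the exact test at dispersions of 0.04 and 0.16, where the assumed spread between cultures is what ends the calls. The count over all genes, 5702, was 3763 after the GC and length correction, 2688 with a fold change above 2, 284 at a dispersion of 0.04 and 1 at a dispersion of 0.16. The median log2 ratio of the members, -0.42, was -0.25 when scaled to the same median, -0.36 when scaled to the same 75th percentile, -0.20 with TMM scaling, -0.28 after the GC correction and -0.20 with length removed too. TMM scaling gave 2864 higher and 2758 lower genes. The log2 changes of the *Cbx3* to *Cbx5*, *Suv39h1* to *Suv39h2* and *Ehmt1* to *Ehmt2* ratios, 1.04, -0.95 and 0.99, were 0.96, -0.46 and 0.58 after the GC correction and 0.59, -0.51 and 0.62 with length removed too. Over the 9 alternatives *Trim28* ranged from -1.72 to -0.81 and *Ehmt2* from -1.34 to -0.39. *Setdb1*, *Ehmt2*, *Suv39h1*, *Suv39h2*, *Trim28* and *Cbx5* kept their sign in all 9, while *Cbx1* (-0.32 to 0.17), *Ehmt1* (-0.35 to 0.23), *Cbx3* (-0.04 to 0.67) and *Atrx* (-0.25 to 0.48) did not. Another pseudocount cannot turn a sign, and the entry choices hardly moved the ratios. A kept sign therefore says something for the scalings and corrections alone. The alignment files give the same library totals, so that alternative has no value of its own.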

Other observations

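Genes known to be silenced by G9a in ES cells were near 0 in both libraries. The *Magea* genes are near copies of each other, so the split of reads among them is uncertain. Of 8 *Magea* genes on the list, *Magea1*, *Magea2*, *Magea5*, *Magea6* and *Magea8* had 0 reads in either library, and *Magea4* had 10 reads in shLuc cells and 3 reads in shKdm5b cells. *Wfdc15a*, the highest of the 9 listed genes, had 11 reads and 1 read, with an RPKM of 0.302 and 0.0295. The 9 genes had 24 reads in all in shLuc cells and 4 in shKdm5b cells, in which *Ehmt2* had the lower RPKM. The limit that a count of 0 allows, 3 reads on 1 kb of transcript, corresponds to an RPKM of 0.0384 in shLuc cells and 0.0413 in shKdm5b cells. This limit takes all reads of a transcript as counted. Whether reads shared by the *Magea* copies were counted is not given in the sources used here and was not tested. For the *Magea* genes a count of 0 therefore sets no upper limit on the transcript level.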
